A study of Mus musculus with 7 samples.

Results

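The genes described here are the integrins and the focal adhesion adaptors: 18 integrin alpha subunits, 8 beta subunits and 11 intracellular adaptors and kinases. They were chosen by name and not by a rule on their values, though with earlier results of these data known. All 37 were matched by symbol among the 53465 genes of the deposited table. Itgad had 0 counts in all 7 libraries, and Fermt1 had 1 to 3 counts in every primary tumor, so that neither was tested and 35 of the 37 passed the filter on low counts.

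RNA was sequenced from whole tumor tissue of EMT6, a mouse mammary carcinoma line grown orthotopically in Balb/c mice, which the methods give as females of 6 to 8 weeks at implantation with 500000 cells in the mammary fat pad. The 3 EMT6-P (parental) tumors received isotype IgG and the 3 EMT6-PTR tumors (αPD-L1 treatment-resistant, PDR in the labels) received αPD-L1, both at 250 μg per mouse every 3 days until endpoint. The additional library, labelled as a metastasis of the resistant variant, had no replicate. Its labels name no organ of spread and give it the same breast tumor source as the primary tumors. The study set EMT6-PTR against EMT6-P to ask what distinguishes tumors that had regrown under PD-L1 inhibition. The EMT6-PTR variant was selected from tumors that had resumed growth, and whether it descends from 1 clone is not given in the sources used here. The labels number the tumors without saying that each came from its own mouse, so p-values measure the spread between these samples.

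Integrins are heterodimers of an alpha and a beta subunit that span the plasma membrane, with the extracellular heads binding matrix or counter-receptors and the short beta tail binding adaptors. The alpha subunit sets much of the ligand choice: collagens, laminins, RGD-containing proteins such as fibronectin, or receptors on other cells for the leukocyte integrins. Talins and kindlins bind the beta tail and switch the receptor to its active form, and vinculin, paxillin, focal adhesion kinase, integrin-linked kinase, parvin and zyxin build the link to actin and to signaling. In a tumor these genes are shared by carcinoma cells, stroma, vessels and leukocytes. In bulk RNA, fewer cells of a type and less RNA per cell cannot be told apart.

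The NPxY motif of the beta tail (asparagine, proline, any residue, tyrosine) is a docking site of talins, with kindlins binding a related site nearby, and the coding ends are shown for the beta subunits on which the results below turn: Itgb1 and Itgb5 for their level, Itgb8 for its difference between the groups and Itgb6 for the metastasis. Each line is the last 105 coding bases before the stop codon, 5′ to 3′, from the GENCODE M21 transcript on GRCm38, with the in-frame NPxY codons in capitals.
Itgb1: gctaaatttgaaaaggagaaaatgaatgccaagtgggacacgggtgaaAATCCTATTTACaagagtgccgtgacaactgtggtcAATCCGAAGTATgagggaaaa
Itgb5: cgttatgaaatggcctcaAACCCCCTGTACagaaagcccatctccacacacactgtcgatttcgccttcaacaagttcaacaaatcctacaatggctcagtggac
Itgb6: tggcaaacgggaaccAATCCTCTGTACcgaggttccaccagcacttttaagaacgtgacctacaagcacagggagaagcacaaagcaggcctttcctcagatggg
Itgb8: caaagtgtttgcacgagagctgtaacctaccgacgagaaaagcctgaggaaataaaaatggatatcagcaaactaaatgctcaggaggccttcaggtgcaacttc
Itgb1 held 2 such motifs, Itgb5 and Itgb6 held 1 each, and Itgb8 held none in these letters. In the last 150 coding bases of the other beta subunits, Itgb3 and Itgb7 held 1 and Itgb2 and Itgb4 held none. The motif was searched in frame on the coding strand only, and 84 of 21590 genes (0.389%) held it in a window of that length. A match describes the sequence, and no match says only that these codons are not in the window.

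Total estimated counts ranged from 20430110 to 25213472 per library. A count of 0 leaves room for up to 3 counts, a limit for counting error only. EMT6-PTR replicate 3 stood apart from the other primary tumors. Its log2 CPM across genes correlated with those of the EMT6-P tumors at Pearson's r of 0.900 to 0.908, against 0.950 to 0.967 for the other EMT6-PTR tumors, and genes are not independent replicates. It held the lowest value of the 6 primary tumors for 34.5% of all 15645 genes tested and the highest for 32.8%. Among the members it was lowest for 23 of 35 (65.7%) and highest for 5. Marker sums moved with it: the 6 leukocyte markers summed to 408 CPM there against 722 to 868 in the other primary tumors, the 6 epithelial markers to 612 against 2385 to 2719, the 6 smooth muscle and pericyte markers to 67.0 against 683 to 1159, and the 6 fibroblast markers to 7525 against 2618 to 4242. Their part in the results was not tested.

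Levels are given as CPM, counts scaled to library size on an upper-quartile scale set over all 7 libraries, in the order of replicates 1, 2 and 3. Members spread more among EMT6-PTR than among EMT6-P tumors in 33 of 35 cases, as did 82.8% of all genes. The median SD of log2 CPM was 0.18 among EMT6-P and 0.53 among EMT6-PTR tumors for the members, beside 0.15 and 0.39 for all genes. The heat map of members by library shows this as a pale block for EMT6-P and a mixed one for EMT6-PTR.

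**Figure D1:**
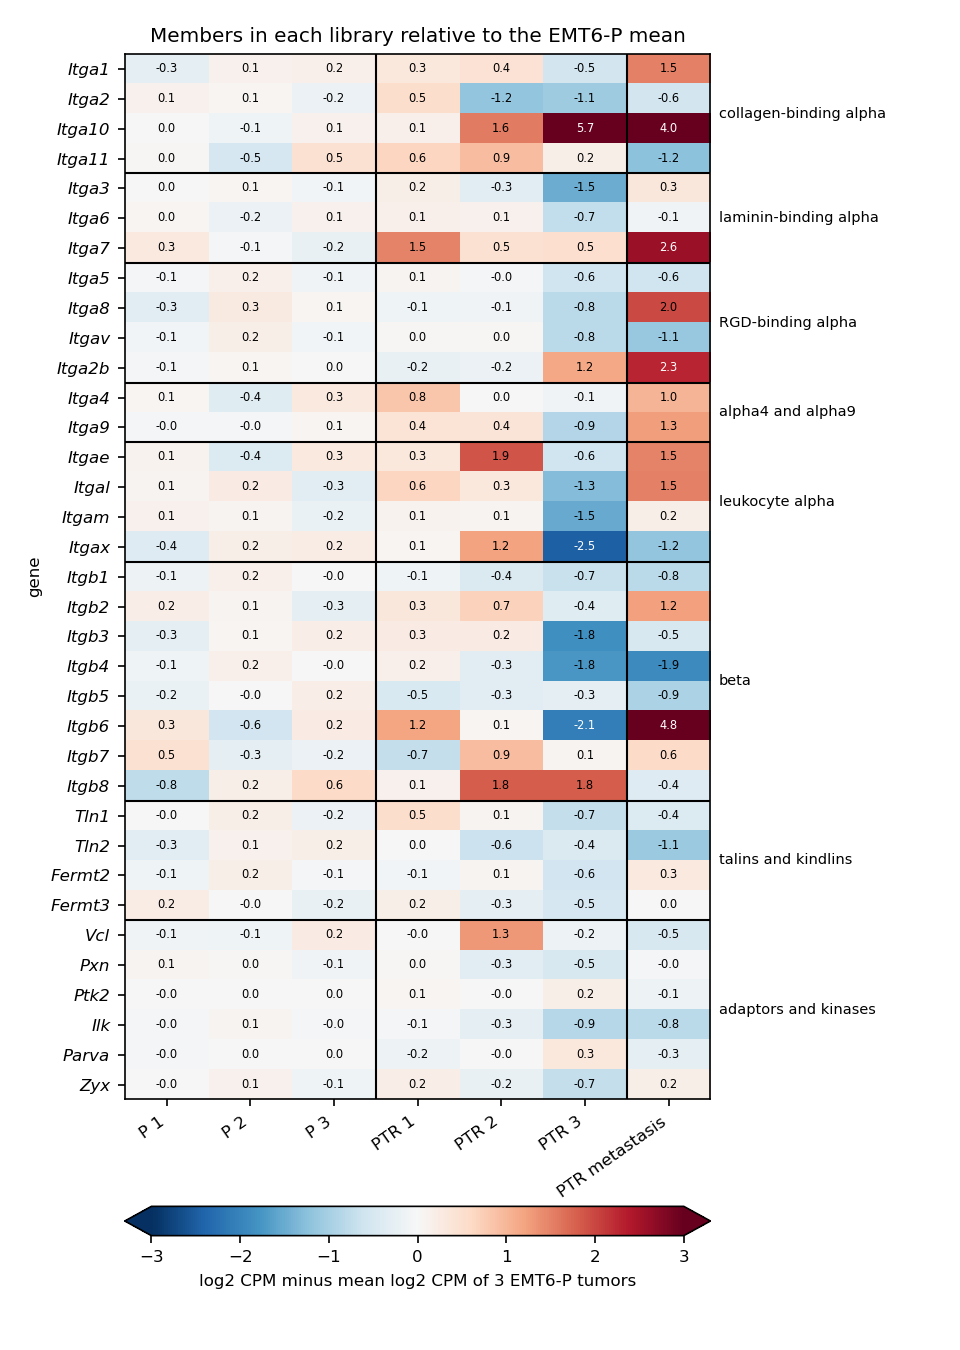
Each cell gives the log2 CPM of a member (rows, by role) in a library (columns) minus the mean log2 CPM of the 3 EMT6-P tumors, with colors limited at -3 and 3. EMT6-PTR replicate 3 held the lowest value of the 6 primary tumors for 23 of 35 members, while Itga10 was highest there.

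No member passed the test between EMT6-PTR and EMT6-P. In edgeR's fit across all genes, with p-values adjusted after Benjamini and Hochberg, 0 of 35 members were called at an adjusted p under 0.05, where 0% of all genes were called and 1786 had an unadjusted p under 0.05. DESeq2 also called 0 members (its adjusted p was missing for Itga10 and Itgae), beside 1.01% of all genes called higher and 1.04% called lower, and limma-voom called 0 members and 0% of genes. The members' adjusted p-values from edgeR ran from 0.427 to 0.959. Fitted log2 fold changes were above 0 for 18 members and below 0 for 17, with a median of 0.05, where 52.3% of all genes lay above 0 with a median of 0.03. At an unadjusted p under 0.05, 3 members were higher in EMT6-PTR (Itga10, Itga7 and Itgb8; 5.84% of all genes) and 0 were lower (5.57% of all genes). The 3 dropped to 0 without EMT6-P replicate 1 (1.94% of all genes) or 2 (2.6%) and to 1, Itgb8, without EMT6-P replicate 3 (2.76%). Without EMT6-PTR replicate 3, the higher members were Itga7, Itga9 and Itgb2 (8.8%), so that Itga10 and Itgb8 were no longer among them. Without EMT6-PTR replicate 1 the higher members were Itga10 and Itgb8 (9.55%), and without replicate 2 Itga10 and Itga7 (6.2%). Conversely, 5 members (Itga2, Itgb1, Tln2, Pxn and Ilk) were lower at that level without EMT6-PTR replicate 1 (8.45%) and 1 (Itgb5) without EMT6-PTR replicate 3 (11.5%).

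The groups did not overlap for 4 members. All 3 EMT6-PTR tumors lay above all 3 EMT6-P tumors for Itga10 and Itga7, 2 of 35, where 9.47% of all genes did so. They lay below for Itgb5 and Ilk, 2 of 35, where 11.8% of all genes did so. These counts depended on single libraries: without EMT6-PTR replicate 3, 10 members lay above (18.1% of all genes), without EMT6-PTR replicate 1, 10 lay below (20.5%), and without EMT6-P replicate 1, 5 lay below (13.8%). A fitted fold of 2 or more was reached by Itga10 and Itgb8 upward (6.27% of all genes) and by 0 members downward (1.29%).

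**Figure D2:**
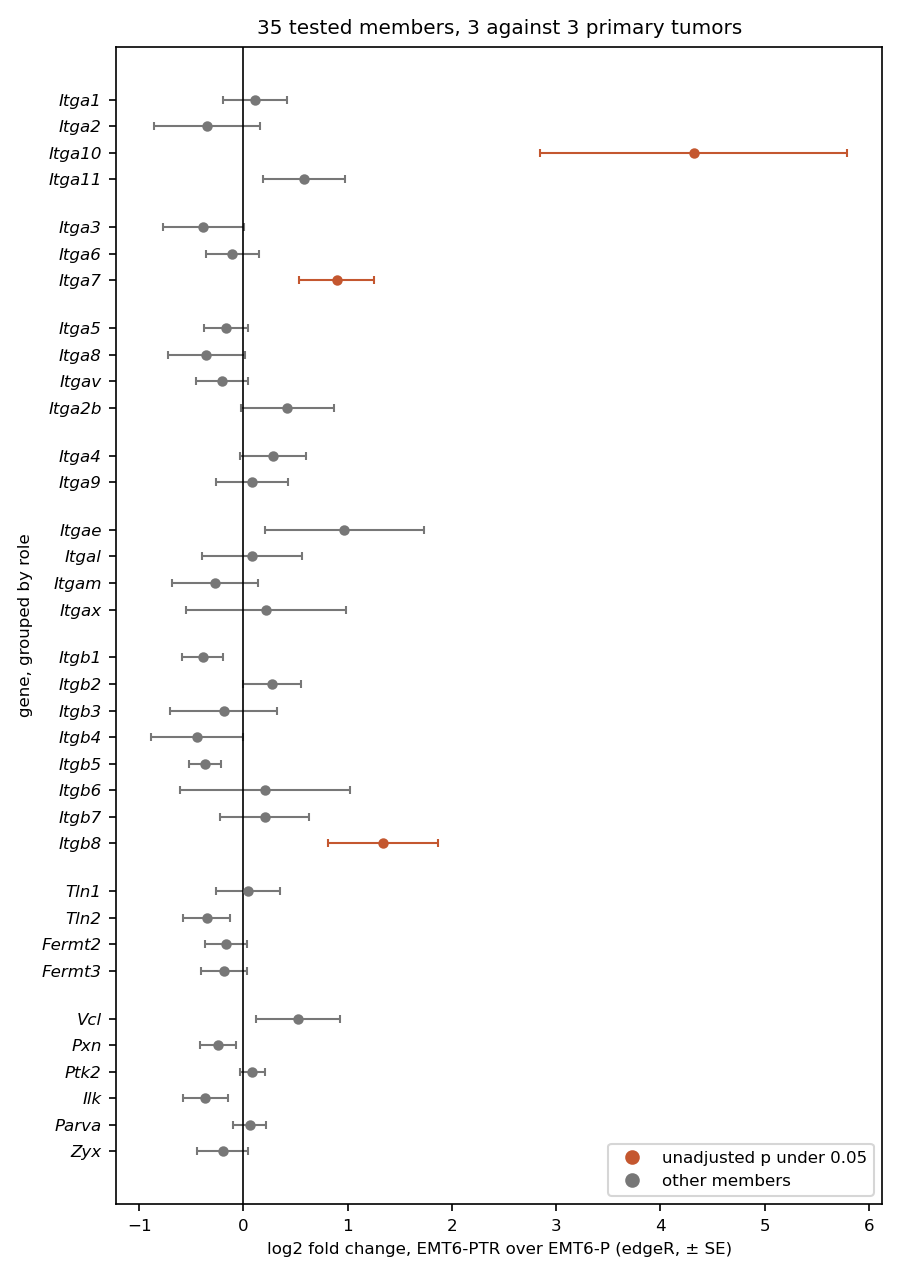
Points are edgeR's log2 fold change of EMT6-PTR over EMT6-P for the 35 tested members, grouped by role, and bars are ± 1 SE. Itga10, Itgb8 and Itga7, at an unadjusted p under 0.05 and an adjusted p of 0.427 to 0.433, lie to the right of 0.

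Among the collagen-binding alpha subunits, Itga10 carried the widest difference and 1 tumor carried most of it. Itga10, the alpha10 chain best known from cartilage (chromosome 3, 96645584 to 96664519, plus strand, GRCm38), stood at 1.75, 1.59 and 1.93 CPM in EMT6-P, at 1.95, 5.31 and 98.1 in EMT6-PTR, and at 30.2 in the metastasis. EMT6-PTR replicate 1 was just above the highest EMT6-P tumor, and replicate 3 was far above all others. The log2 fold change was 4.32 (SE 1.47, adjusted p of 0.427 by edgeR). Leaving out EMT6-PTR replicate 3 gave 1.03, and limma-voom gave 2.63. Gm42957 overlaps Itga10 on the same strand, and RSEM placed 69.5 reads on it in EMT6-PTR replicate 3 and under 2 in each of the other primary tumors, so that the division of reads is uncertain.

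The other collagen receptors overlapped between the groups. Itga11, the fibroblast collagen receptor chain, was at 1.56, 1.03 and 2.12 CPM in EMT6-P and 2.39, 2.96 and 1.72 in EMT6-PTR, with overlapping groups and a log2 fold change of 0.58 (SE 0.39). Itga2, the alpha chain of the platelet and epithelial collagen receptor, was at 6.91, 6.60 and 5.59 CPM in EMT6-P and at 9.20, 2.74 and 2.97 in EMT6-PTR. The 3 resistant tumors thus lay on both sides of the parental ones. Itga1, the partner of beta1 on smooth muscle and activated T cells, was at 8.47, 11.4 and 11.6 CPM in EMT6-P and 12.9, 14.02 and 7.11 in EMT6-PTR. Pelo and Gm49395 overlap Itga1 on the same strand, which makes its level uncertain.

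Of the laminin-binding alpha subunits, Itga7 lay above EMT6-P in all 3 resistant tumors. Itga7, the muscle laminin receptor chain (chromosome 10, 128933818 to 128958282, plus strand), was at 5.99, 4.63 and 4.14 CPM in EMT6-P and 13.8, 6.76 and 6.88 in EMT6-PTR. Replicate 1 of EMT6-PTR was high, and the others were close to the highest parental tumor. Its log2 fold change was 0.89 (SE 0.36, adjusted p of 0.433 by edgeR), or 0.46 with EMT6-PTR replicate 1 left out. The 6 skeletal muscle markers summed to 3560 CPM in that tumor, to 8.10 and 3.52 in EMT6-PTR replicates 2 and 3, and to 619, 9.36 and 353 in EMT6-P. Among the primary tumors, Itga7 and this sum were both highest in EMT6-PTR replicate 1. In the metastasis, Itga7 was higher still at 29.9 CPM, and the muscle sum was 2.04 CPM, the lowest of the 7 libraries. The part of muscle tissue in the Itga7 values was not tested. Mettl7b overlaps it on the opposite strand.

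Itga3 and Itga6, the epithelial laminin receptor chains, were lowest in EMT6-PTR replicate 3. Of the 6 epithelial markers, 4 were also lowest there, and Epcam and Krt5 were not. Itga3 was at 208, 214 and 194 CPM in EMT6-P and 232, 166 and 73.2 in EMT6-PTR, with a log2 fold change of -0.38 (SE 0.39). Itga6 was at 50.0, 42.8 and 52.8 CPM in EMT6-P and 53.4, 52.9 and 29.1 in EMT6-PTR, with a log2 fold change of -0.11 (SE 0.25). In both genes the first resistant tumor was the highest of the 6. Itga6 turned to 0.13 without EMT6-PTR replicate 3.

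The RGD-binding alpha subunits overlapped between the groups. Itga5, the fibronectin receptor chain, was at 224, 259 and 216 CPM in EMT6-P and 246, 225 and 153 in EMT6-PTR, with a log2 fold change of -0.17 (SE 0.21). Itgav, the vitronectin receptor chain that also takes part in activating latent TGF-beta, was at 135, 161 and 134 CPM in EMT6-P and 146, 146 and 80.9 in EMT6-PTR. Both genes were lowest in EMT6-PTR replicate 3 and stood within the parental range in the other resistant tumors. The log2 ratio of Itga5 to Itgav was 0.73, 0.69 and 0.68 in EMT6-P and 0.75, 0.63 and 0.91 in EMT6-PTR. The difference of 0.06 had an exact two-sided permutation p of 0.6 (adjusted over 5 ratios, 0.75), and 0.1 is the smallest p that 3 against 3 tumors allow.

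Itga8, a mesenchymal receptor for nephronectin, and Itga2b, the platelet fibrinogen receptor chain, were scarce in the primary tumors. Itga8 was at 1.22, 1.92 and 1.65 CPM in EMT6-P and 1.43, 1.45 and 0.860 in EMT6-PTR. Itga2b was at 2.78, 3.04 and 2.91 CPM in EMT6-P and 2.47, 2.57 and 6.64 in EMT6-PTR. EMT6-PTR replicate 3 was the lowest tumor for Itga8 and the highest for Itga2b. Itga4 and Itga9, which bind VCAM-1 and matrix ligands such as tenascin and osteopontin, ranged from 9.92 to 15.8 and from 17.7 to 18.8 CPM in EMT6-P, and from 11.997 to 22.7 and from 9.77 to 24.0 in EMT6-PTR. Neither group of values lay wholly above or below the other.

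Of the primary tumors, the resistant one with the lowest leukocyte marker sum had the lowest values of the tested leukocyte alpha chains. Itgb7, a lymphocyte beta chain given below, was lowest in EMT6-PTR replicate 1. Itgam, the CD11b chain of myeloid cells, was at 132, 126 and 104 CPM in EMT6-P and 129, 128 and 42.3 in EMT6-PTR. Itgal, the LFA-1 chain, was at 15.7, 17.5 and 11.7 CPM in EMT6-P and 23.2, 18.3 and 5.94 in EMT6-PTR. Itgax, the CD11c chain used as a marker of dendritic cells and some macrophages, was at 22.5, 33.2 and 34.2 CPM in EMT6-P and 30.8, 68.7 and 5.31 in EMT6-PTR. All 4 tested leukocyte alpha chains, Itgae with 0.234 CPM included, had their lowest value of the 6 primary tumors in EMT6-PTR replicate 3. All 6 leukocyte markers were lowest there as well, and 3 of 7 macrophage markers were. The T cell, B cell, dendritic cell and neutrophil markers summed to 9.73, 6.84, 11.9 and 34.0 CPM there. None of these sums was the lowest of the 6 primary tumors.

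Itgb2, the common beta chain of these receptors, was at 76.0, 70.7 and 54.7 CPM in EMT6-P and 84.6, 107 and 51.9 in EMT6-PTR, with a log2 fold change of 0.27 (SE 0.28). The log2 ratio of Itgb2 to Ptprc, the CD45 gene carried by leukocytes in general, was 0.26, 0.29 and -0.12 in EMT6-P and 0.03, 0.20 and 0.65 in EMT6-PTR. Per unit of Ptprc, replicate 3 was thus the highest of the 6 tumors for Itgb2. The difference of 0.15 had an exact two-sided permutation p of 0.6 (adjusted 0.75). The log2 ratio of Itgam to Itgal was 3.07, 2.84 and 3.14 in EMT6-P and 2.47, 2.80 and 2.81 in EMT6-PTR. All 3 resistant tumors lay below all 3 parental ones in this ratio, by 0.32 in the mean, with an exact two-sided permutation p of 0.1, the smallest possible, and 0.5 after adjustment. A gene annotated as Gm49368 overlaps Itgam on the same strand, and it took 13.2 to 44.6 estimated counts per primary tumor.

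Itgb5 was the beta subunit whose groups did not overlap. Itgb5, the vitronectin receptor beta chain (chromosome 16, 33829665 to 33949338, plus strand), was at 537, 610.0 and 700.0 CPM in EMT6-P and 446, 486 and 497 in EMT6-PTR. The resistant tumors lay close together, with an SD of 27.0 CPM against 81.7 in EMT6-P. The log2 fold change was -0.37 (SE 0.16, adjusted p of 0.438 by edgeR), and it ran from -0.46 to -0.27 when each tumor was left out in turn.

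Itgb8 and Itgb1 differed in opposite directions and neither passed the test. Itgb8, which with Itgav binds latent TGF-beta (chromosome 12, 119158022 to 119238802, minus strand), was at 6.96, 13.4 and 17.8 CPM in EMT6-P and 12.9, 41.8 and 42.0 in EMT6-PTR. EMT6-PTR replicates 2 and 3 were above all parental tumors and replicate 1 was within their range, with a log2 fold change of 1.34 (SE 0.53, adjusted p of 0.433 by edgeR). Itgb1, the partner of most matrix-binding alpha chains (chromosome 8, 128685654 to 128733200, plus strand), was at 1132, 1396 and 1254 CPM in EMT6-P and 1155, 929.7 and 796 in EMT6-PTR. Its first resistant tumor overlapped the parental range and the other two lay below, with a log2 fold change of -0.39 (SE 0.19, adjusted p of 0.471 by edgeR).

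**Figure D3:**
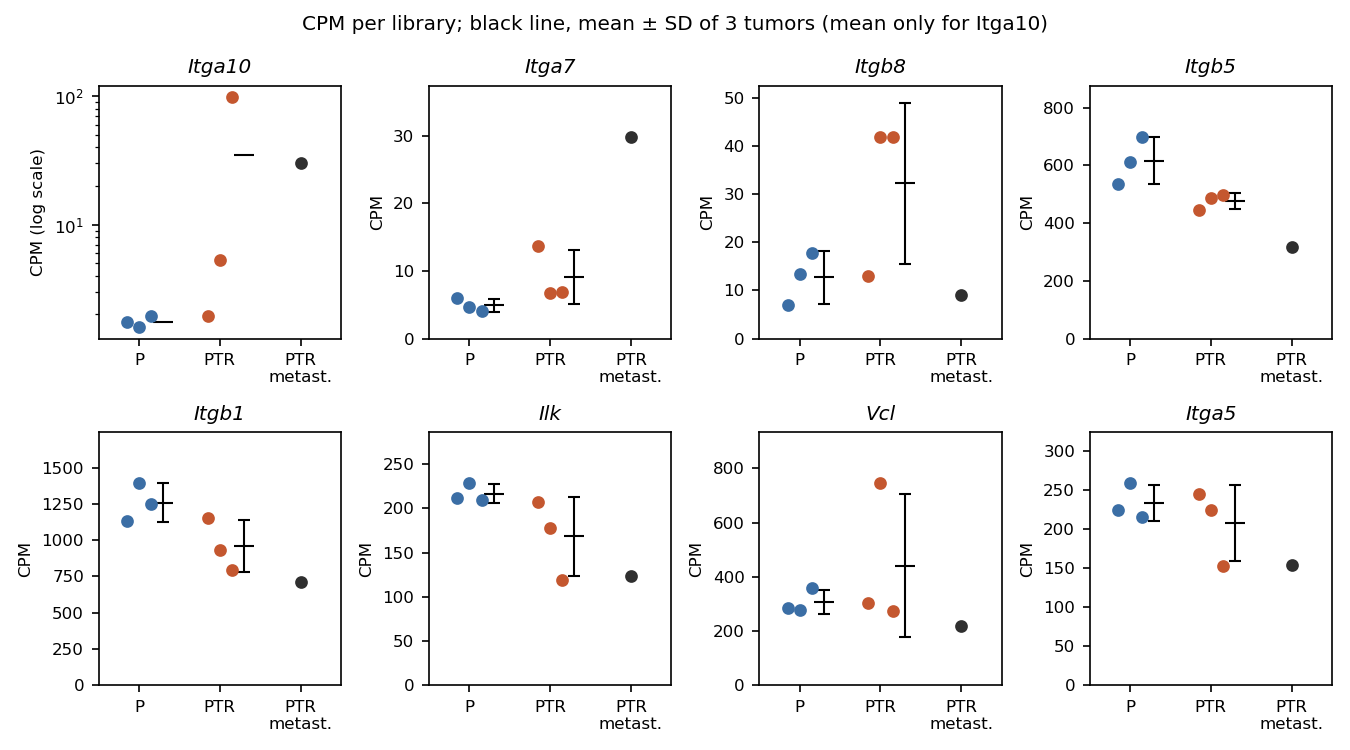
Points are CPM in each library for EMT6-P, EMT6-PTR and the single EMT6-PTR metastasis, and black lines are the mean ± SD of 3 tumors (mean only for Itga10, on a log axis). Itga10 and Itga7 lay above and Itgb5 and Ilk below EMT6-P in every resistant primary tumor, while Itgb8, Itgb1, Vcl and Itga5 overlapped.

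The other beta subunits overlapped. Itgb4, which pairs with Itga6 in hemidesmosomes, was at 252, 309 and 274 CPM in EMT6-P and 309, 222 and 82.4 in EMT6-PTR, with a log2 fold change of -0.44 (SE 0.44). The log2 ratio of Itgb4 to Itga6 was 2.33, 2.85 and 2.37 in EMT6-P and 2.53, 2.07 and 1.498 in EMT6-PTR. Replicates 2 and 3 of EMT6-PTR were below the parental range and replicate 1 within it (difference -0.49, exact two-sided permutation p of 0.3, adjusted 0.75). Itgb3, the vitronectin and fibrinogen receptor chain, ran from 53.0 to 72.8 CPM in EMT6-P and was at 76.1, 75.2 and 17.6 in EMT6-PTR. Itgb7, the beta chain of gut-homing lymphocytes, ran from 30.2 to 51.1 CPM in EMT6-P and from 22.4 to 70.2 in EMT6-PTR. Itgb6, an epithelial chain induced in wound repair, was at 1.85, 0.936 and 1.74 CPM in EMT6-P and 3.43, 1.51 and 0.274 in EMT6-PTR.

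Between genes, levels were compared per kb of union exon length, the summed length of all annotated exons of a gene. Over the 6 primary tumors Itgb1 led all integrin subunits at 272 CPM per kb, followed by Itgb5 at 154, Itga5 at 44.7, Itgb4 at 34.4 and Itga3 at 31.7. Itgb1 made 52.9% ± 3.3 (SD, n = 6) of the summed beta chains and Itgb5 30.2% ± 4.1. Itga5 made 33.0% ± 1.4 and Itga3 22.8% ± 4.7 of the summed alpha chains, while Itgam made 15.7% and Itgav 9.13%. The order of the last pair rested on the length used, since mean transcript lengths gave 11.6% for Itgam and 17.0% for Itgav. In EMT6-PTR replicate 3, Itga10 made 21.2% of the alpha chains, against 0.203% to 0.704% in the other primary tumors (13.2% with the mean transcript length of each gene in place of union exon length). The summed alpha chains came to 140, 151 and 133 CPM per kb in EMT6-P and 156, 145 and 89.3 in EMT6-PTR. The summed beta chains came to 518, 604 and 587 CPM per kb in EMT6-P and 503, 473 and 385 in EMT6-PTR, so that all 3 resistant tumors lay below all parental ones in this sum.

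**Figure D4:**
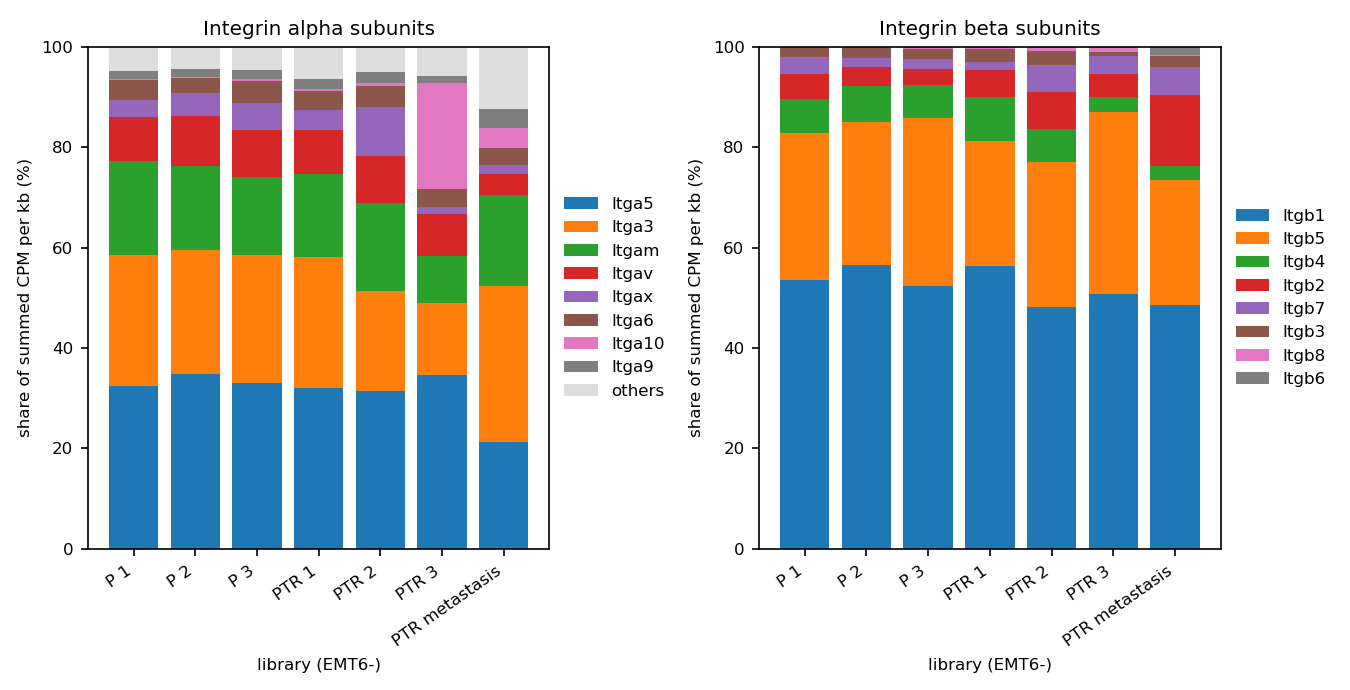
Bars show the share (%) of each alpha subunit (left) or beta subunit (right) in the summed CPM per kb of its class in each library. Itga5 and Itga3 lead the alpha chains and Itgb1 and Itgb5 the beta chains in most libraries, Itga10 reaches 21.2% in EMT6-PTR replicate 3, and Itgb2 reaches 14.1% in the metastasis.

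The activators of the beta tail were not distinguishable between the groups. Tln1, the main talin, was at 386, 436 and 346 CPM in EMT6-P and 554, 413 and 238 in EMT6-PTR, so that resistant tumors were both the highest and the lowest of the 6 (log2 fold change 0.05, SE 0.31). Tln2 was at 55.5, 75.5 and 77.9 CPM in EMT6-P and 69.0, 44.0 and 50.6 in EMT6-PTR (log2 fold change -0.35, SE 0.22). Replicates 2 and 3 of EMT6-PTR were the lowest of the 6 for Tln2. Fermt2, the kindlin of most adherent cells, was at 130, 161 and 136 CPM in EMT6-P and 135, 150.3 and 94.8 in EMT6-PTR. Fermt3, the kindlin of blood cells, was at 47.2, 39.9 and 34.8 CPM in EMT6-P and 45.8, 33.4 and 28.3 in EMT6-PTR. The ranges overlapped for all 4 genes. The log2 ratio of Fermt2 to Fermt3 was 1.46, 2.01 and 1.97 in EMT6-P and 1.56, 2.17 and 1.74 in EMT6-PTR, a difference of 0.01 with an exact two-sided permutation p of 1.

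Among the adaptors and kinases, Ilk lay below EMT6-P in every resistant tumor and Vcl was high in 1. Ilk, the integrin-linked pseudokinase (chromosome 7, 105736592 to 105742925, plus strand), was at 212, 229 and 209.8 CPM in EMT6-P and 208, 178 and 119 in EMT6-PTR. The first resistant tumor was just below the lowest parental one, and the log2 fold change was -0.37 (SE 0.22, adjusted p of 0.525 by edgeR), or -0.17 with EMT6-PTR replicate 3 left out. Rrp8 and Taf10 overlap Ilk on the opposite strand. Vcl, which encodes vinculin, was at 284, 277 and 359 CPM in EMT6-P and 304, 746 and 274 in EMT6-PTR. Replicate 2 alone was above the parental range, and the log2 fold change of 0.52 (SE 0.40) became -0.08 without it. Per kb of union exon length, over the 6 primary tumors, Ilk was at 70.1 CPM, Vcl at 45.7, Zyx at 44.0 and Tln1 at 40.3. Without EMT6-PTR replicate 2, Vcl was at 36.6 CPM per kb, below Zyx and Tln1, and with mean transcript lengths Tln1 came first at 238 and Ilk second at 179.

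Ptk2, Parva, Pxn and Zyx stayed within narrow ranges in EMT6-P. Ptk2, the focal adhesion kinase gene, ran from 108 to 110.1 CPM in EMT6-P and from 109 to 124 in EMT6-PTR, with a log2 fold change of 0.09 (SE 0.12), the smallest SE of all members. Parva, which joins Ilk to actin, ran from 196 to 204 CPM in EMT6-P and from 181 to 249 in EMT6-PTR. Ptk2 and Parva had the smallest SDs of log2 CPM of the 35 tested members in EMT6-P. Pxn, the scaffold paxillin, ran from 151 to 170.2 CPM in EMT6-P and from 116 to 166 in EMT6-PTR. Zyx, the stress fiber protein zyxin, ran from 230.4 to 278 CPM in EMT6-P and from 153 to 292 in EMT6-PTR. Pxn and Zyx were lowest, and Ptk2 and Parva highest, in EMT6-PTR replicate 3.

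The rest of the adhesion machinery gave a like picture. Of 44 further adhesion genes, such as parvins, tensins, filamins and Rap1 regulators, 0 were called by edgeR, 21 lay above 0 and 23 below on the log2 scale, and the median log2 fold change was -0.003. At an unadjusted p under 0.05, Rasgrp2, an activator of Rap1, and Tns1, a tensin, were higher, and Pak1, a kinase downstream of Rac, was lower. Of 33 integrin ligands 31 were tested, of which 0 were called by edgeR, with 18 above 0 and 13 below. The collagen chain Col3a1 was at 813, 735 and 1161 CPM in EMT6-P and 946, 2004 and 9089 in EMT6-PTR, highest in the tumor in which Itga10 was highest. The other listed collagen chains differed in that tumor. Col1a2, at 4836 CPM, was also highest there. Col1a1, at 2755, was within the range of the other primary tumors, and Col4a1, at 142, and Col4a2, at 112, were lowest there.

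In the metastasis, which has no replicate and was not tested, 5 members exceeded the highest EMT6-PTR tumor by over 2-fold, of 35 above 1 CPM in either, where 10.8% of all genes did so. Itgb6 was at 41.5 CPM (1055 counts), 12.1-fold above the highest EMT6-PTR tumor (chromosome 2, 60598292 to 60722643, minus strand). Itga8 was at 6.48 CPM, 4.46-fold above. Itga7 was at 29.9 CPM, Itga2b at 14.6 and Itga1 at 29.6, which were 2.17-fold, 2.19-fold and 2.11-fold above. Beside Itga2b, the 6 platelet and megakaryocyte markers summed to 43.9 CPM, within their range of 17.8 to 56.0 in the primary tumors. Their mean log2 CPM, which weighs the 6 equally, was 1.86, above the range of -0.19 to 0.58 in the primary tumors. Gp9 at 2.04 CPM and Gp6 at 0.865 were above all primary tumors, and Pf4, Ppbp, Gp1ba and Gp1bb were within their ranges. Leaving out an EMT6-PTR tumor can only keep or lower the highest value, so it could not take any of the 5 from this count. Fermt1, the epithelial kindlin, had 21 counts in the metastasis and 1 to 3 in each primary tumor.

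Only Itga11 lay more than 2-fold below the lowest EMT6-PTR tumor, at 0.590 CPM and 34.3% of it, where 2.23% of all genes did so. The count was 4 without EMT6-PTR replicate 3 (Itga11, Itgav, Itgax and Itgb4; 8.67% of all genes) and 2 without replicate 1 (Itga11 and Itgb8; 2.83%). Itgb1 at 715 CPM, Itgb5 at 317, Itgav at 65.1, Itgb4 at 73.9, Itgb8 at 9.08, Tln2 at 31.8, Vcl at 219, Ptk2 at 98.8 and Parva at 163 were below all 3 EMT6-PTR tumors by less than 2-fold. The summed beta chains came to 360.2 CPM per kb, below all primary tumors, while the summed alpha chains, at 147, were within their range.

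Among the leukocyte integrins of the metastasis, Itgb2 at 155 CPM, Itgal at 42.4 and Itgam at 135 were above all primary tumors. Itgax at 12.9 CPM was below all EMT6-P tumors and within the range of EMT6-PTR, and Itgae was within the range of the primary tumors. The log2 ratio of Itgam to Itgal was 1.67 and that of Itgb2 to Ptprc 0.81, outside the ranges of the primary tumors. Itgb2 made 14.1% of the summed beta chains, against 3.05% to 7.38% in the primary tumors, and Itga5 made 21.2% of the alpha chains, against 31.4% to 34.8%. Itga3, at 261 CPM, made 31.1% and led the alpha chains.

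Markers of other tissue moved with these values. The 5 lung epithelium markers summed to 7944 CPM in the metastasis against 1.45 to 26.1 in the primary tumors, the 6 neutrophil markers to 2931 against 25.01 to 58.7, and the 6 endothelial markers to 813 against 117 to 172. Of these lists, none of the markers was at 3 counts or fewer in the metastasis. In the primary tumors 3 or 4 of the 5 lung markers were. The ligands Npnt (nephronectin, bound by Itga8) at 91.8 CPM against 1.45 to 4.14 and Icam1 (bound by Itgal and Itgam with Itgb2) at 737 against 8.68 to 28.0 were also higher than in all primary tumors. Of 32 ligands above 1 CPM, 8 exceeded the highest EMT6-PTR tumor by over 2-fold (10.8% of all genes) and 0 lay that far below the lowest (2.23%). Spp1 and Tgfb1 were below all primary tumors. How much of the integrin values these tissues carry was not tested.

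**Figure D5:**
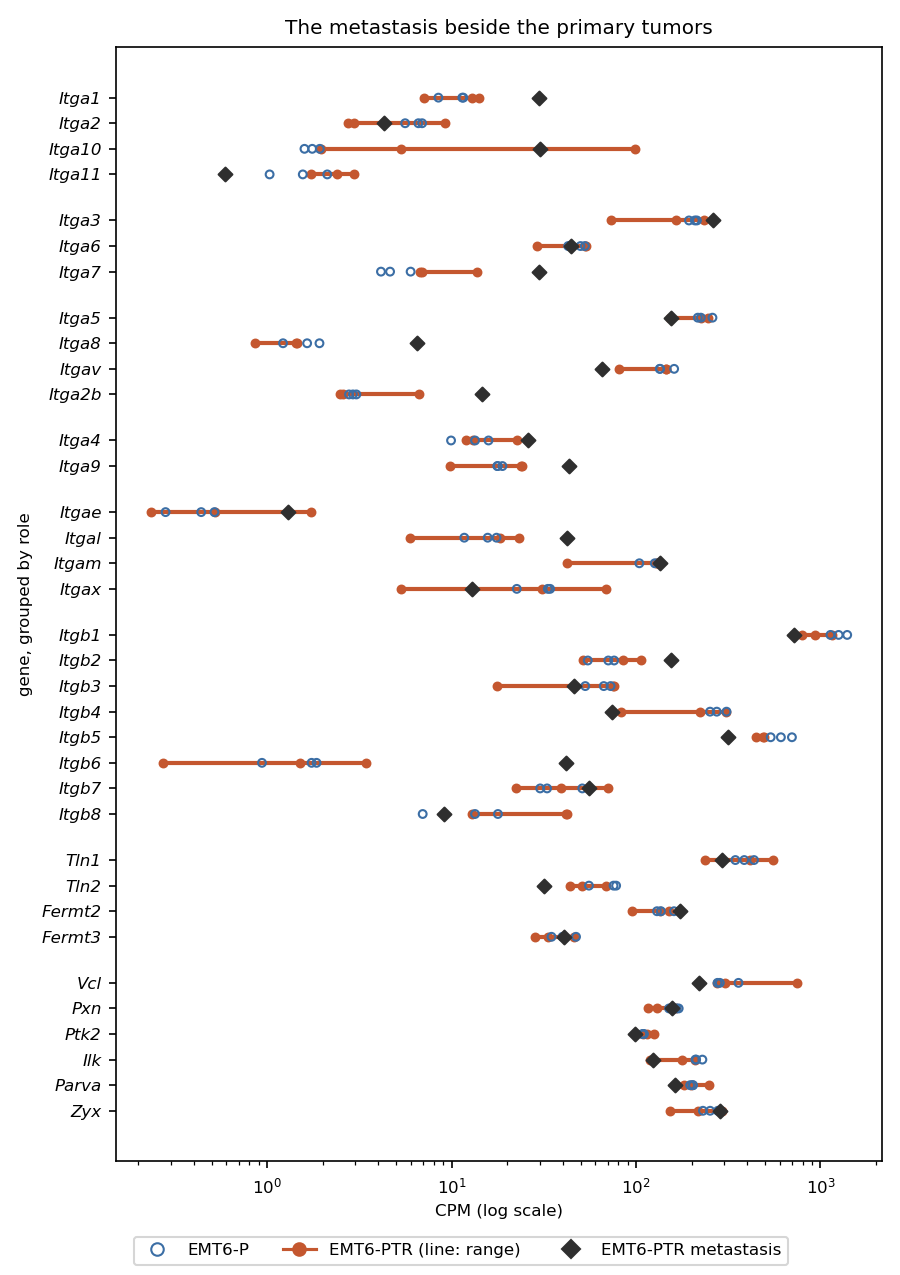
CPM on a log axis for the 35 tested members, with open circles for EMT6-P, filled circles and a line for the range of the 3 EMT6-PTR tumors, and a diamond for the metastasis. Itgb6 at 41.5 CPM lies 12.1-fold to the right of the highest EMT6-PTR tumor, and Itga11 at 0.590 CPM lies to the left of its range.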

How the data were processed

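Per the labels and methods, RNA of 7 samples was prepared with a stranded polyadenylated kit. The authors checked reads with FastQC 0.11.5, aligned them with STAR 2.6.0a to GRCm38 with GENCODE M16, and deposited RSEM 1.3.1 expected counts (estimated counts per gene), not normalized. The strand setting of the counting is not given in the sources used here. RSEM divides reads that fit several genes, and Ilk, Itgam, Itgb4, Itgb5, Tln1, Vcl and Zyx had fractional counts in all 7 libraries. Genes on the opposite strand overlap Ilk, Itga7, Itga4, Itgae, Fermt3, Tln1, Vcl and Zyx, and their reads cannot be told apart if strand was not used. Symbols, positions and exon lengths came from GENCODE M21 on the same assembly, where 53274 of 53465 identifiers had a symbol.

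Counts were rounded to whole numbers. The 3 EMT6-PTR and 3 EMT6-P tumors were compared with edgeR 4.0.16 (R 4.3.3): filterByExpr, upper-quartile factors, glmQLFit and glmQLFTest, Benjamini-Hochberg adjustment over 15645 genes, threshold 0.05. The SE is the size of the log2 fold change over the square root of F. The metastasis stayed out of this fit. SDs of log2 CPM used a prior count of 2. Ratios were compared by exact permutation over 20 assignments. Alternatives were TMM factors, DESeq2 1.42.0, limma-voom (limma 3.58.1), no filter, at least 10 counts in every primary tumor, the metastasis as a further group, a replicate block, a prior count of 0.5, other gene lengths (for the adaptors, chosen after seeing the data) and leaving out each tumor. The fits were tested on simulated data. The members and lists were chosen with earlier results of these data known. Values in every sample are given for members with an unadjusted p under 0.05, non-overlapping groups, the highest levels per kb, a metastasis value over 2-fold outside the EMT6-PTR range or a part in a ratio; those of other members shown in full were chosen after their values were seen. The result of 1 item is not reported here.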

Additional observations from a re-analysis of the deposited data

How the results depend on the processing

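The count of 0 members called held under edgeR with TMM factors, without a filter, with at least 10 counts in every primary tumor, with the metastasis as a further group, with the replicate block and without each tumor in turn, and under DESeq2 and limma-voom, with a smallest adjusted p of 0.138. Members at an unadjusted p under 0.05 numbered 0 higher under limma-voom and 1 lower (Itgb5) under DESeq2, and 0 to 3 higher and 0 to 5 lower when tumors were left out. Non-overlapping members numbered 2 to 10 above and 2 to 10 below without single tumors, and members past 2-fold in the metastasis 5 to 7 above and 1 to 4 below. Leaving out a tumor cannot remove a non-overlapping member or one past 2-fold above, so these ranges do not test those members. With mean transcript lengths, the share of Itga5 was 27.8% and that of Itgb5 34.9%; with the longest transcript, added after the data were seen, that of Itga5 was 30.5%. Whether the replicate numbers pair the tumors is not known. Deviations from the group means correlated at 0.26, 0.25 and 0.04 for same-numbered tumors and at -0.29 to 0.098 for differently numbered ones. A block on the number left 1268 genes at an unadjusted p under 0.05 by edgeR, against 1786, and it also leaves fewer degrees of freedom. Of 453 alternative log2 fold changes of 35 members, 418 kept their sign and 35, in 19 members, turned, none past the threshold. Under limma-voom and under the block, respectively, the values were -0.066 and -0.018 for Itga9, -0.16 and -0.11 for Itgal, -0.50 and -0.27 for Itgax, -0.40 and -0.19 for Itgb6 and -0.028 and -0.033 for Tln1. With single tumors left out, signs turned within -0.061 to 0.36 for Itga1, -0.25 to 0.13 for Itga6, -0.31 to 0.014 for Itga5, -0.35 to 0.023 for Itgav, -0.21 to 0.66 for Itga2b, -0.069 to 0.46 for Itga4, -0.12 to 0.40 for Itga9, -0.13 to 1.41 for Itgae, -0.31 to 0.47 for Itgal, -0.51 to 0.090 for Itgam, -0.72 to 0.73 for Itgax, -0.48 to 0.24 for Itgb3, -0.80 to 0.72 for Itgb6, -0.30 to 0.52 for Itgb7, -0.27 to 0.31 for Tln1, -0.30 to 0.0017 for Fermt2, -0.081 to 0.77 for Vcl, -0.084 to 0.15 for Parva and -0.46 to 0.0061 for Zyx, and the log2 ratios within -0.027 to 0.29 for Itgb2 to Ptprc, -0.012 to 0.13 for Itga5 to Itgav and -0.17 to 0.15 for Fermt2 to Fermt3. The cause was not tested.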
